A study of Mus musculus with 10 samples.

Results

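The messenger RNA levels of 10 genes of de novo lipogenesis and fatty acid elongation, Srebf1, Acly, Acaca, Fasn, Scd1, Elovl3, Elovl5, Elovl6, Pnpla3 and Thrsp, were followed across 4 hepatocyte genotypes. They are defined by name, as genes that make, desaturate and lengthen fatty acids in the liver together with their regulator and close cofactors. The definition uses no measured value, but earlier results of these data were known when the genes were chosen. All 10 were among the 21939 genes of the deposited table and among the 13641 genes tested.

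Hepatocytes were isolated from adult male mice 12 days after an injection of AAV8Cre. This is an adeno-associated virus in which the thyroxine-binding globulin promoter limits Cre recombinase to hepatocytes. The age given for the mice was 8 to 9 weeks, which need not be their age at isolation. Control mice were wild-type C57BL/6J (C57BL6/j in the labels) without floxed alleles, the Nrf2 KO mice carried Nrf2 flox/flox, the p65 KO mice p65 flox/flox, and the Nrf2:p65 DKO mice both floxed alleles. All 4 groups therefore received the virus, and the study's methods place injection and killing in the morning. There were 3 control, 2 Nrf2 KO, 2 p65 KO and 3 DKO libraries, 1 for each mouse, with total estimated counts between 33707165 and 49897382.

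Excess carbohydrate reaches this pathway as citrate, which ATP citrate lyase (Acly) splits into acetyl-CoA. Acetyl-CoA carboxylase 1 (Acaca) turns it into malonyl-CoA, fatty acid synthase (Fasn) builds palmitate, stearoyl-CoA desaturase 1 (Scd1) inserts a double bond, and the Elovl enzymes add carbon units to saturated, monounsaturated or polyunsaturated chains. Sterol regulatory element-binding protein 1 (Srebf1) is the transcription factor that insulin uses to switch the pathway on after feeding, and fasting lowers most of its genes.

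The promoters of Srebf1, Acaca, Fasn, Thrsp and Elovl5 are shown because these genes passed the test in p65 KO or DKO, Elovl5 lower and the others higher. RefSeq promoters from 250 bases before to 50 after the start site (build GRCm38.p6) were matched for 8 of the 10 genes, with 10 start sites in all. Of the 3 start sites of Srebf1, sites 2 and 3 are shown, since site 2 holds the match to the NF-κB consensus, which is not capitalized. Scd1 and Elovl3 were not matched. Capitals mark the CCAAT box (CCAAT, or ATTGG on the other strand), the GC box (GGGCGG or CCGCCC) and the E-box (CACGTG), and neighbouring matches may overlap.
Srebf1 (start site 2), chr11:60220578-60220877, minus strand: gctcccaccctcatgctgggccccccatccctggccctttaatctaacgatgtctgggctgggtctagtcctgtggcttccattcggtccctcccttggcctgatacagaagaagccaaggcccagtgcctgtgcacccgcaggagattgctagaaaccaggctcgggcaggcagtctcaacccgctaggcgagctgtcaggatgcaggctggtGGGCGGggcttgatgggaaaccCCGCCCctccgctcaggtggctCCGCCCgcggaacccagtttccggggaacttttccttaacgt
Srebf1 (start site 3), chr11:60210422-60210721, minus strand: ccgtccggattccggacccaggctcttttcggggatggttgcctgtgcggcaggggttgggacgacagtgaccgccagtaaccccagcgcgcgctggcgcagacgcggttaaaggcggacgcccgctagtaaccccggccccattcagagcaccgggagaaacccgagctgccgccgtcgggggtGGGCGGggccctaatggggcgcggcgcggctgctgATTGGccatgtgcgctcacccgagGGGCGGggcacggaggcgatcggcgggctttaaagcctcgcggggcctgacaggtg
Acaca, chr11:84195188-84195487, plus strand: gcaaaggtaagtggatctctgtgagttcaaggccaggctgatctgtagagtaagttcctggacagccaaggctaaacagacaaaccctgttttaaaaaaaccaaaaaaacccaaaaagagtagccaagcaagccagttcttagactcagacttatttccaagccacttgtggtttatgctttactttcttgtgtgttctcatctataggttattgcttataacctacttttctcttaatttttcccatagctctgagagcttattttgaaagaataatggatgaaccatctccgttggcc
Fasn, chr11:120824498-120824797, minus strand: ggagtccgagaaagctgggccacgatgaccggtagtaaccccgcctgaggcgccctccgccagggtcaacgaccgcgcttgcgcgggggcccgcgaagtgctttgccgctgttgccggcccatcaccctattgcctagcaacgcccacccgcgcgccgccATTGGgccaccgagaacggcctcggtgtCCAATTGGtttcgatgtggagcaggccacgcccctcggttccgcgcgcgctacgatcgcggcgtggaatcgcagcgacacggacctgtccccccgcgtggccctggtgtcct
Thrsp, chr7:97417501-97417800, minus strand: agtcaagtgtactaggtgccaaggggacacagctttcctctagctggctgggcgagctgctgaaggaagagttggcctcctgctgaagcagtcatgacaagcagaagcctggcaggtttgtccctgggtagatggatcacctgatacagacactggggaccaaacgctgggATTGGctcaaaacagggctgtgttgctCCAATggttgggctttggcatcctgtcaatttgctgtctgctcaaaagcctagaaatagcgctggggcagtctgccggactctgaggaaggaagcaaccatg
Elovl5, chr9:77917115-77917414, plus strand: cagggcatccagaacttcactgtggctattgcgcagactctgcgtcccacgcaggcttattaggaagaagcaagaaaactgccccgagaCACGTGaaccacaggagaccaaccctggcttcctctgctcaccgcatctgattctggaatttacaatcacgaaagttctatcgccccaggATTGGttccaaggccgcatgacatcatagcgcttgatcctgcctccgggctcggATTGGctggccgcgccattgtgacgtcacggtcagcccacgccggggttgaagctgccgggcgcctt

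A CCAAT box was found in 7 of the 10 promoters, and in 37.4% of the 32851 RefSeq promoters of the same length. In Fasn it occurred 3 times, with first bases at positions -90, -62 and -59 from the start site, and in Thrsp at -79 and -52. A GC box was present in 4 of the 10 promoters (35.7% of all) and the E-box in 1, that of Elovl5 at position -161 (7.15% of all). The sterol regulatory element as TCACNCCAC (1.24% of all) and the antioxidant response element as TGACNNNGC (12.4% of all) had no match in these windows, and the NF-κB consensus matched at start site 2 of Srebf1, at position -22 (8.46% of all). The window of Acaca held none of the motifs searched. It counts among the 10 promoters, but its RefSeq start site lies inside the gene, far downstream of the gene start given below. The region at that gene start was not searched. Both strands were searched. These are matches of letters, not measured binding sites.

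The counts were taken as Salmon estimates rounded to whole numbers, and a normalized count here is the estimated count divided by the relative library size after TMM scaling. The gene total of Nfe2l2, which encodes Nrf2, was higher in libraries labelled Nrf2 KO (4739 and 5005) and DKO (3434 to 5240) than in control (1990 to 2318), and that of Rela, which encodes p65, was between 1034 and 1489 in all 10 libraries. A total over all exons does not check a deletion of some of them, so genotypes are named as labelled. The study itself reported efficient loss of both factors in isolated hepatocytes by RT-qPCR and Western blot. Among targets of Nrf2, Gstm1 fell from 95274 to 116086 in control to 11566 and 16030 in Nrf2 KO, and 7 of 10 such targets fell in Nrf2 KO, 9 in DKO and 4 in p65 KO, where 1 rose. The 8 hepatocyte markers summed to between 3515286 and 5555963 in every library, and most of this sum was Alb. Of these 8, 2 rose in p65 KO (Hnf4a and Cps1), 1 in DKO (Cps1) and 0 in Nrf2 KO. Lists of markers of other liver cells differed in direction. The 9 Kupffer cell markers summed to 318 to 751 in control, 199 and 658 in Nrf2 KO, 3726 and 5090 in p65 KO and 1388 to 2409 in DKO, and 9 of 9 rose in p65 KO and 5 of 9 in DKO. The 6 sinusoidal endothelial markers summed to 456 to 1019 in control, 2266 and 3149 in p65 KO and 1127 to 1584 in DKO, and the 6 stellate cell markers to 131 to 322, to 1454 and 1459, and to 247 to 650. All 6 endothelial and 5 of 6 stellate markers rose in p65 KO, and 1 of each list rose in DKO. Of 5 monocyte and dendritic cell markers tested, 3 rose in p65 KO and 1 in DKO. Of 5 T and NK cell markers tested, 1 rose in DKO, and of the markers tested 0 of 2 for B cells, 0 of 2 for neutrophils, 0 of 3 for cholangiocytes and 0 of 5 for erythroid cells passed in any of the 3 genotypes by edgeR. Cholangiocyte markers had a median log2 fold change of -1.06 (Nrf2 KO), -0.22 (p65 KO) and -0.67 (DKO), and erythroid markers one of -0.014, -0.80 and 2.06 in the same order. Of 7 adipocyte markers, 2 passed the filter on low counts, and their sum was between 16.8 and 89.8 in every library. The part of these cells in the differences below was not tested. Fewer hepatocytes and less RNA per hepatocyte cannot be told apart in such samples.

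Per kilobase of canonical transcript, Scd1 had by far the highest control level of the 10 genes, with 90929 ± 32068 normalized counts per kilobase (SD, n = 3). Elovl3 (8982 ± 2796), Elovl5 (7864 ± 2364), Thrsp (5073 ± 1662) and Acly (3600 ± 987) followed, and among these Elovl3 and Elovl5 differed by less than either SD. Fasn (1554 ± 551), Srebf1 (1102 ± 224), Elovl6 (594 ± 126) and Acaca (425 ± 108) were lower, with Fasn and Srebf1 closer than the SD of Fasn, and Pnpla3 was the lowest, with 27.0 ± 17.4. In the p65 KO libraries the order changed, with Thrsp (18751 ± 7712, n = 2) second to Scd1 (45524 ± 8078) and Elovl3 (803 ± 70.3) next to Acaca (797 ± 159).

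**Figure D1:**
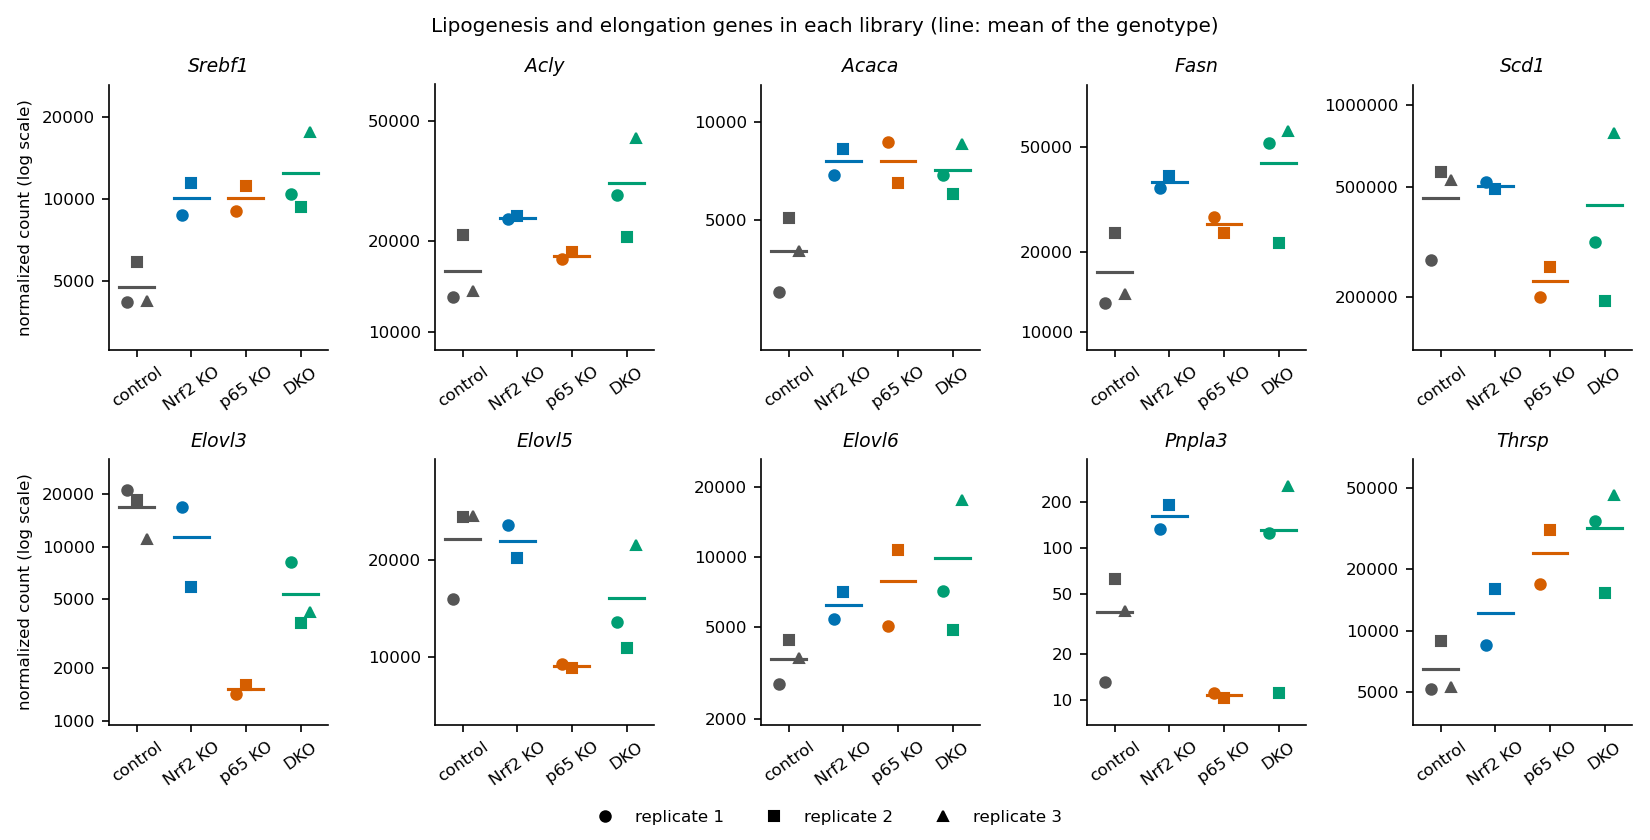
Normalized counts of the 10 genes (y axis, log scale) in each library, by genotype (x axis). Symbols are the replicates and lines the genotype means. Srebf1 in all 7 knockout libraries (8791 to 17623) lies above the 3 control libraries (4195 to 5902), whereas Elovl3 in p65 KO (1424 and 1612) lies below every other library.

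The first question was how the genes differed from control in each genotype. A gene passed at an adjusted p of at most 0.05 in edgeR's quasi-likelihood test. Of the 10 genes, 0 passed in Nrf2 KO (0.726% of all genes tested passed), 5 in p65 KO (14.9%) and 5 in DKO (5.45%). In p65 KO, Srebf1, Acaca and Thrsp rose (8.13% of all genes rose) and Elovl3 and Elovl5 fell (6.77% fell). In DKO, Srebf1, Acaca, Fasn and Thrsp rose (2.61%) and Elovl3 fell (2.84%). At an absolute log2 fold change of at least 1 in addition, 4 genes were past both thresholds in p65 KO (6.59% of all genes) and 4 in DKO (2.38%). The median log2 fold change of the 10 genes was 0.84 for Nrf2 KO, 0.39 for p65 KO and 1.17 for DKO, beside 0.00185, 0.000896 and 0.0246 over all genes. With equal library totals instead of TMM scaling, the passing genes of the whole table shifted from 1109 higher and 923 lower to 1632 and 355 in p65 KO and from 356 and 387 to 241 and 639 in DKO, while the 10 genes kept their directions in these comparisons and Acaca no longer passed in DKO (adjusted p = 0.06375). The 3 comparisons share the same control libraries and are not independent.

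**Figure D2:**
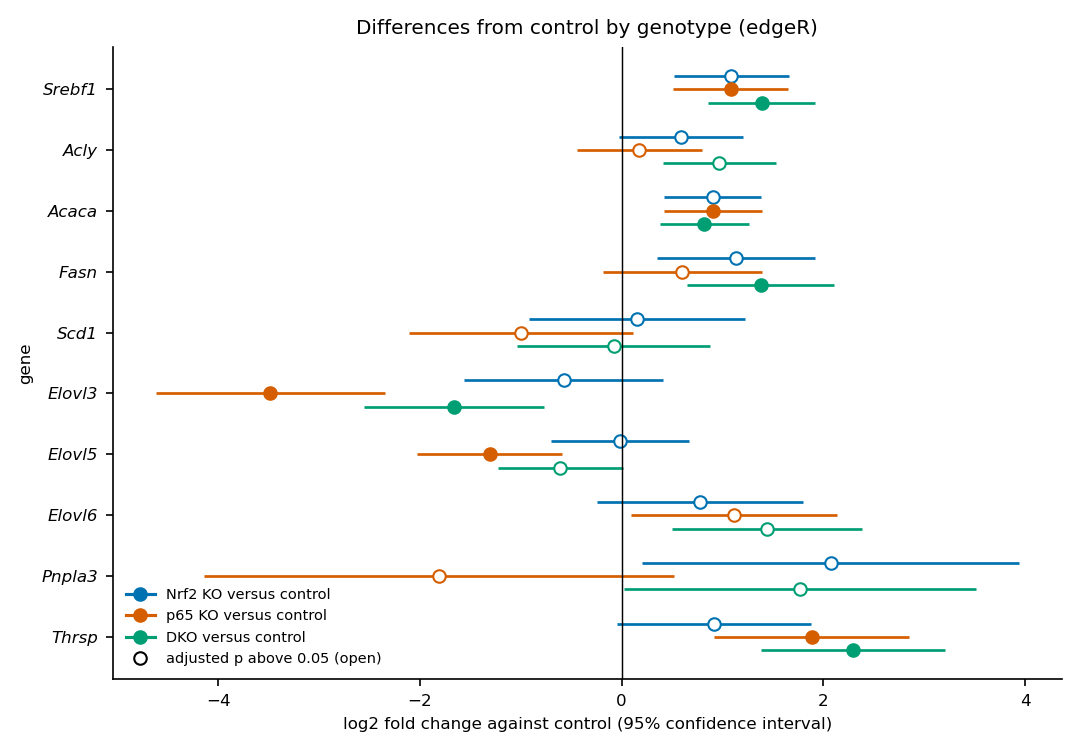
Log2 fold change against control (x axis) of the 10 genes (y axis) in Nrf2 KO, p65 KO and DKO, from edgeR. Horizontal lines are 95% confidence intervals and filled points have an adjusted p of at most 0.05. Srebf1 and Acaca lie right of 0 with similar values in all 3 genotypes, and Elovl3 lies left of 0, farthest in p65 KO (-3.48).

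Srebf1 (ENSMUSG00000020538, GRCm39 chromosome 11, 60089913 to 60113407) encodes the transcription factor of the pathway. Its normalized counts were 4195, 5902 and 4239 in control replicates 1 to 3, 8791 and 11505 in Nrf2 KO, 9022 and 11185 in p65 KO, and 10478, 9397 and 17623 in DKO. No knockout library overlapped the control range. It rose 2.11-fold in p65 KO (95% confidence interval 1.42 to 3.14, adjusted p = 0.021) and 2.615-fold in DKO (1.82 to 3.77, adjusted p = 0.0103). In Nrf2 KO the estimate was about as large, 2.12-fold (1.43 to 3.15), but its adjusted p of 0.115 did not pass.

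Of the enzymes that supply and build the carbon chain, Acaca rose in p65 KO and DKO, Fasn rose in DKO, and Acly passed in no genotype. Acaca (ENSMUSG00000020532, chromosome 11, 84020476 to 84292477), the committed step, had 3024, 5069 and 4036 normalized counts in control, 6867 and 8262 in Nrf2 KO, 8651 and 6515 in p65 KO, and 6854, 6002 and 8575 in DKO. All knockout libraries lay above all control libraries. The rise was 1.875-fold in p65 KO (1.34 to 2.62, adjusted p = 0.0216) and 1.77-fold in DKO (1.302 to 2.40, adjusted p = 0.0387), and the estimate in Nrf2 KO was 1.87-fold (1.34 to 2.61, adjusted p = 0.121). Fasn (ENSMUSG00000025153, chromosome 11, 120696672 to 120715995) had 12817, 23605 and 13869 in control, 35054 and 38599 in Nrf2 KO, 27195 and 23670 in p65 KO, and 51698, 21704 and 57238 in DKO. DKO replicate 2 fell inside the control range, and p65 KO replicate 2 barely exceeded the highest control library. Fasn rose 2.597-fold in DKO (1.57 to 4.29, adjusted p = 0.0359), and the estimates were 2.20-fold in Nrf2 KO (1.275 to 3.78, adjusted p = 0.274) and 1.517-fold in p65 KO (0.879 to 2.62, adjusted p = 0.276). Acly (ENSMUSG00000020917, chromosome 11, 100367165 to 100440756) had 13097, 20893 and 13633 in control and 28526, 20591 and 44085 in DKO, where its 1.96-fold estimate missed the threshold (1.33 to 2.89, adjusted p = 0.0529). In Nrf2 KO (23628 and 24195) it lay just above control, with a 1.51-fold estimate (0.983 to 2.31, adjusted p = 0.563), and in p65 KO (17444 and 18416) inside the control range.

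Thrsp (Spot 14, a small nuclear and cytosolic protein that promotes lipogenesis and responds to thyroid hormone and carbohydrate) showed the largest rise of the 10 genes in p65 KO and in DKO. On chromosome 7, 97062139 to 97066937, the gene (ENSMUSG00000035686) had 5202, 8929 and 5304 normalized counts in control, 8496 and 15993 in Nrf2 KO, 16981 and 30909 in p65 KO, and 34242, 15298 and 46016 in DKO. The p65 KO and DKO libraries did not overlap control, and Nrf2 KO replicate 1 did. The rise was 3.70-fold in p65 KO (1.89 to 7.22, adjusted p = 0.019) and 4.92-fold in DKO (2.61 to 9.26, adjusted p = 0.0121), with 1.89-fold in Nrf2 KO (0.970 to 3.68, adjusted p = 0.567). Its paralog Mid1ip1, which activates acetyl-CoA carboxylase, had 1677 to 2148 in control, 2736 and 3295 in p65 KO and 1718 to 4272 in DKO and passed in neither (adjusted p = 0.126 and 0.1125). Mid1ip1 was picked for this comparison after its values were seen.

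The elongases went in different directions. Elovl3 (ENSMUSG00000038754, chromosome 19, 46119917 to 46124133), which lengthens saturated and monounsaturated chains and varies with the time of day in male mouse liver, had 21276, 18600.2 and 11076 normalized counts in control, 16976 and 5848 in Nrf2 KO, 1424 and 1612 in p65 KO, and 8165, 3659 and 4230 in DKO. Both p65 KO libraries were below all others, DKO was below control without overlap, and the 2 Nrf2 KO libraries differed 2.90-fold from each other. Its level fell by 3.48 on the log2 scale in p65 KO (SE 0.516, adjusted p = 0.00293), to 0.0894 of control, and by 1.67 in DKO (SE 0.405, adjusted p = 0.0386), to 0.315. In Nrf2 KO its estimate was 0.672 of control (0.339 to 1.33, adjusted p = 0.787). Elovl5 (ENSMUSG00000032349, chromosome 9, 77818113 to 77891802), which acts on polyunsaturated chains, had 15206, 27180 and 27471 in control, 25811 and 20255 in Nrf2 KO, 9526 and 9265 in p65 KO, and 12840, 10661 and 22289 in DKO. Both p65 KO libraries were below all others, and DKO replicate 3 lay inside the control range. It fell to 0.404 of control in p65 KO (0.245 to 0.665, adjusted p = 0.0244), and its 0.655 of control in DKO (0.427 to 1.01, adjusted p = 0.228) did not pass. In Nrf2 KO it stood at 0.989 of control (0.614 to 1.59, adjusted p = 0.9995). Elovl6 (ENSMUSG00000041220, chromosome 3, 129326004 to 129432144), which takes palmitate to stearate, had estimates in the opposite direction, with 2848, 4394 and 3689 in control, 5388 and 7108 in Nrf2 KO, 5058 and 10699 in p65 KO, and 7149, 4839 and 17633 in DKO. All its knockout libraries were above control, but none of the 3 estimates passed, with 2.16-fold in p65 KO (1.07 to 4.39, adjusted p = 0.127) and 2.71-fold in DKO (1.41 to 5.21, adjusted p = 0.0792).

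Scd1 and Pnpla3 passed in no genotype and had the widest ranges of the 10 genes among the DKO libraries. Scd1 (ENSMUSG00000037071, chromosome 19, 44382894 to 44399154) had 271978, 567383 and 531123 normalized counts in control, 521434 and 493499 in Nrf2 KO, 200014 and 257411 in p65 KO, and 315026, 192168 and 789279 in DKO, a 4.11-fold range. The p65 KO libraries lay below control, at 0.501 of its level (0.233 to 1.08, adjusted p = 0.200), which did not pass. In Nrf2 KO (1.11-fold, 0.530 to 2.33, adjusted p = 0.972) and DKO (0.946-fold, 0.487 to 1.84, adjusted p = 0.936) the intervals span both directions. Of the 31-base stretches of Scd1 transcripts, 5.79% also occur in other genes, most often in Scd3, which had 0 to 14.8 normalized counts, and for the other 9 genes this share was at most 1.59%. Pnpla3 (ENSMUSG00000041653, chromosome 15, 84051943 to 84073723), a lipid droplet acyl hydrolase, had few counts, with 13.25, 62.0 and 38.3 in control, 131.5 and 189 in Nrf2 KO, 11.2 and 10.4 in p65 KO, and 125, 11.2 and 253 in DKO. Both Nrf2 KO libraries were above control and both p65 KO libraries below it. The estimate of 4.205-fold in Nrf2 KO spanned 1.15 to 15.3 (adjusted p = 0.465), that of 0.285 in p65 KO 0.0568 to 1.435 (adjusted p = 0.268), and that of 3.399-fold in DKO 1.01 to 11.4 (adjusted p = 0.217).

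In Nrf2 KO, libraries did not overlap control for 6 of the 10 genes, all higher (Srebf1, Acly, Acaca, Fasn, Elovl6 and Pnpla3), whereas 14.8% of all genes were higher and 13.6% lower without overlap. By edgeR 0 genes passed, 4 had an unadjusted p under 0.05 (Srebf1, Acaca, Fasn and Pnpla3), and DESeq2 passed 3 (Srebf1, Acaca and Fasn). Over all 13641 genes tested, 1279 had such an unadjusted p and DESeq2 passed 320. Without DKO replicate 3, edgeR passed 1 of the 10 in Nrf2 KO, Srebf1. In p65 KO, 5 genes were higher without overlap (26.2% of all genes) and 4 lower (23.8%), and in DKO 4 higher (13.2%) and 1 lower (13.2%).

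The passing genes in p65 KO and DKO depended on single libraries. Over all genes the counts fell as well, in p65 KO from 2032 to 858 without control replicate 1 and to 1334 without control replicate 3. In DKO they fell from 743 to 229 without control replicate 1. Leaving out an Nrf2 KO or a p65 KO library leaves that group with 1 mouse. In p65 KO, the count of 5 became 2 without control replicate 1 (Elovl3 and Elovl5), 1 without control replicate 3 (Elovl3), 2 without p65 KO replicate 1 (Elovl3 and Thrsp) and 2 without p65 KO replicate 2 (Acaca and Elovl3). Elovl3 passed whichever of the 10 libraries was left out, with adjusted p between 0.00132 and 0.0421. In DKO, the count of 5 became 0 without control replicate 1, where Srebf1 had an adjusted p of 0.0545 and Thrsp of 0.064, and 7 without DKO replicate 2. It became 3 without control replicate 3, either Nrf2 KO or either p65 KO replicate, DKO replicate 1 or DKO replicate 3. Srebf1 and Thrsp passed in DKO in each of the 9 other cases, Acaca in 4, Elovl3 in 4 and Fasn in 2 of the 10 cases. With only control and DKO in the fit, neither Acaca (adjusted p = 0.06305) nor Fasn (adjusted p = 0.0773) passed in DKO.

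The order of the replicates was shared by most of the 10 genes in DKO and control. DKO replicate 2 had the lowest DKO level of all 10 genes, and DKO replicate 3 the highest of 9, the exception being Elovl3. Control replicate 1 was the lowest control for 9 genes, all but Elovl3, and control replicate 2 the highest for 8. In Nrf2 KO, replicate 1 was the higher for 3 and replicate 2 for 7 genes, and in p65 KO for 4 and 6. The ratio of the highest to the lowest DKO library was 1.43 for Acaca, 1.875 for Srebf1, 2.64 for Fasn, 3.01 for Thrsp, 3.64 for Elovl6, 4.11 for Scd1 and 22.5 for Pnpla3. The sum of 12 fasting-responsive genes was 394754 in DKO replicate 2, beside 235821 and 260801 in DKO replicates 1 and 3, with 229011 normalized counts of Pck1, a gluconeogenic enzyme named after its values were seen, against 111489 and 122782. Among controls this sum was lowest in replicate 2, at 206569, beside 321533 and 330995. In p65 KO, 6 of these 12 genes fell and 0 rose, among them Pdk4 (fell by 4.18 on the log2 scale) and Cyp4a14 (fell by 4.66), in DKO 4 fell, and in Nrf2 KO 1, Fgf21. The part of feeding state in the levels of the 10 genes was not tested.

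**Figure D3:**
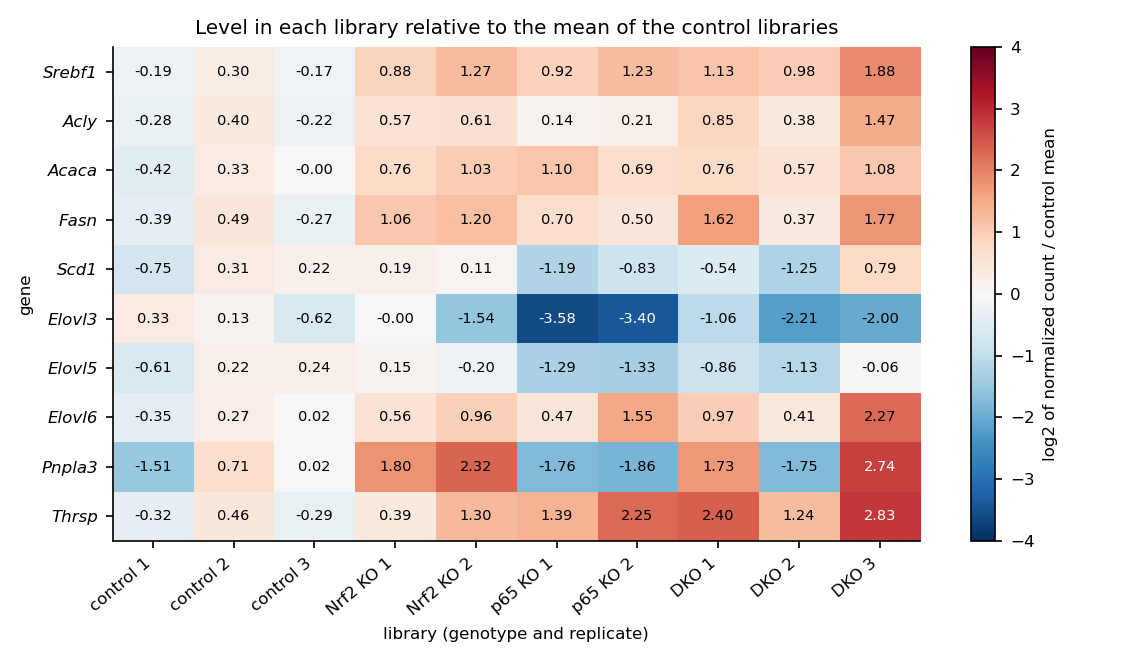
Log2 of each library's normalized count over the mean of the 3 control libraries, for the 10 genes (rows) and 10 libraries (columns). Red is higher and blue lower than the control mean. The row of Elovl3 reaches -3.58 in p65 KO replicate 1, and the column of DKO replicate 3 is the highest DKO column for 9 of the 10 genes.

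Genes of the circadian clock were read beside Elovl3, and many of them also differed from control in p65 KO and DKO. Of 5 clock genes that peak with Bmal1, also called Arntl, 4 fell in p65 KO and 3 in DKO. Of 10 that peak with Per2, 9 rose in p65 KO and 5 in DKO. In Nrf2 KO, 0 of the 15 passed by edgeR or DESeq2, and 3 had an unadjusted p under 0.05 (1279 of all 13641 genes). Bmal1 had 758, 1129.9 and 498 normalized counts in control, 700.0 and 323 in Nrf2 KO, 30.5 and 21.7 in p65 KO, and 270.3, 132 and 130.4 in DKO. Dbp, an output gene of the clock named here after its values were seen, had 45.3, 54.1 and 426 in control, 87.0 and 1719 in Nrf2 KO, 3627 and 3589 in p65 KO, and 1271, 1621 and 2437 in DKO. Within control and within Nrf2 KO, the library with the lowest Elovl3 had the lowest Bmal1 and the highest Dbp. In p65 KO, replicate 1 had the lower Elovl3 but the higher Bmal1. In DKO, replicate 1 had the highest Elovl3, the highest Bmal1 and the lowest Dbp, and replicate 2 had the lowest Elovl3 but less Dbp than replicate 3. Per2 lay between 138 and 168 in control, was 177 and 386 in Nrf2 KO and 1178.5 and 1256 in p65 KO, and lay between 589 and 897 in DKO. All 4 genotypes were processed in the morning, and the part of the time of day in the level of Elovl3 was not tested.

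**Figure D4:**
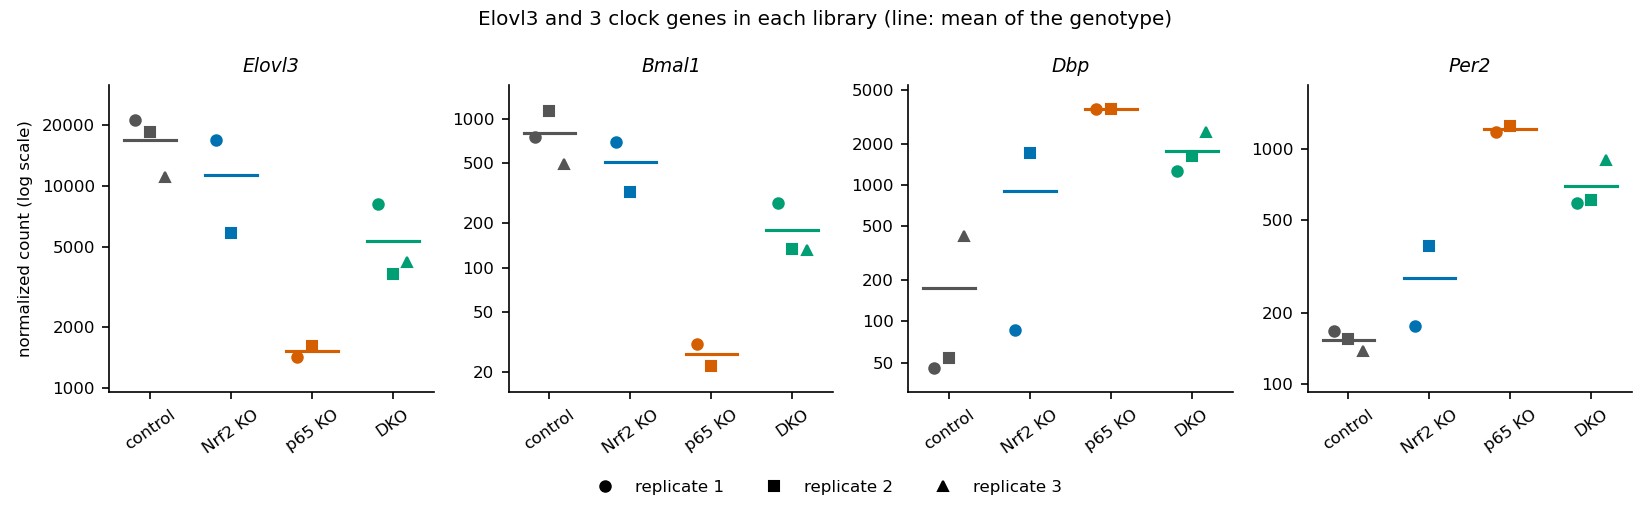
Normalized counts (y axis, log scale) of Elovl3 and of the clock genes Bmal1, Dbp and Per2 in each library, by genotype (x axis). Symbols are replicates and lines genotype means. Elovl3 and Bmal1 are lowest in the 2 p65 KO libraries, where Dbp (3627 and 3589) and Per2 are highest, and Nrf2 KO replicate 2 sits apart from replicate 1 in Elovl3, Bmal1 and Dbp.

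Elovl3 also belongs among liver genes that are higher in male mice. Of 12 male-predominant genes, 3 fell in p65 KO (Mup20, Cyp4a12a and Serpina1e), 3 in DKO (Hsd3b5, Cyp4a12a and Ugt2b1) and 1 in Nrf2 KO (Ugt2b1). Of 9 female-predominant genes tested, 3 rose in p65 KO (Cyp2a4, Cyp2b13 and Cux2) and 2 in DKO (Cyp17a1 and Cyp2a4), although reads of Cyp2a4 may be shared with a near-identical paralog. Cyp2b13 was at 0 in control and Nrf2 KO, 13.2 and 6.62 in p65 KO and at most 2.24 in DKO. It reached the filter on low counts only through the p65 KO libraries, so its rise there is no separate evidence. Cux2 also had few counts, 0 to 3.31 in control and 32.5 and 15.1 in p65 KO. Cyp2a4 had 8.83, 4.92 and 47.6 normalized counts in control, 2.97 and 0.808 in Nrf2 KO, 18096 and 17985 in p65 KO, and 1648, 5039 and 11.4 in DKO, so DKO replicate 3 lay inside the control range. It made up most of the list's summed count in p65 KO, 18398 and 18568. Cyp17a1 had 85.0 to 190.5 in control, 417 and 698 in Nrf2 KO, 129.0 and 178 in p65 KO, and 1661, 534 and 1960.1 in DKO. Both Nrf2 KO libraries were thus above control, although Cyp17a1 did not pass there.

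Other genes of the pathway were read in 4 lists, set by function. In Nrf2 KO, 0 of the 62 genes tested in these lists passed by edgeR, 11 had an unadjusted p under 0.05 and 4 passed by DESeq2 (Acsl1, Dgat2, Insig2 and Pklr). Over all 13641 genes, these counts were 99, 1279 and 320. Of 19 regulators of lipogenesis, 2 rose and 1 fell in p65 KO, and 1 rose and 1 fell in DKO, and the list's median log2 fold change was -0.08 and -0.0015. Insig2, which holds the Srebf precursor and its escort in the endoplasmic reticulum, had 9977, 13740 and 9518 normalized counts in control, 7361 and 5528 in Nrf2 KO, 1766 and 1997 in p65 KO, and 5461, 4595 and 4040 in DKO. All 7 knockout libraries were below control. It fell by 2.56 on the log2 scale in p65 KO (SE 0.213, adjusted p = 0.000527) and by 1.24 in DKO (SE 0.174, adjusted p = 0.00352). Its interaction of Nrf2 and p65 loss passed, at 2.10 (SE 0.281, adjusted p = 0.0123). Ppargc1b, a coactivator of Srebf1, rose by 1.11 in p65 KO (adjusted p = 0.0482) and by 1.21 in DKO (adjusted p = 0.0462), from 89.5 to 144 in control to 198 to 328. Rxra, a partner of nuclear receptors, rose by 0.49 in p65 KO (adjusted p = 0.0492). Mlxipl, which encodes the carbohydrate-sensing factor ChREBP, and the feedback regulator Insig1 passed in none of the 3 genotypes by edgeR, and both are named after their values were seen.

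Of 15 genes that supply carbon and NADPH, 1 rose in p65 KO and 1 rose and 1 fell in DKO. Pklr, liver pyruvate kinase, had 6684, 11690.2 and 8125 normalized counts in control, 15438 and 19771 in Nrf2 KO, 14196 and 17997 in p65 KO, and 16612, 13762 and 21585 in DKO. All 7 knockout libraries were above control, and the rise was 0.87 on the log2 scale in p65 KO (SE 0.245, adjusted p = 0.0385) and 0.97 in DKO (SE 0.224, adjusted p = 0.0315). Me1, malic enzyme, which makes NADPH and is a known Nrf2 target, went the other way. It had 14897, 18116 and 13605 in control, 6538 and 7794 in Nrf2 KO, 6041 and 11020.5 in p65 KO, and 5428, 2901 and 9436 in DKO. All 7 knockout libraries were below control, and Me1 fell by 1.39 in DKO (SE 0.357, adjusted p = 0.0481) but did not pass in Nrf2 KO (adjusted p = 0.379) or p65 KO (adjusted p = 0.167). Of 16 other genes of desaturation and elongation tested, 2 fell in p65 KO. Hsd17b12, which catalyses a later step of the elongation cycle, fell by 0.53 on the log2 scale and Hacd2, its dehydratase, fell by 0.41. In DKO 0 of the 16 passed.

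Of 12 genes of glycerolipid synthesis, 2 rose and 4 fell in p65 KO, and 1 rose and 1 fell in DKO. Lpin1, a phosphatidate phosphatase, had 1982, 2879 and 5009.6 normalized counts in control, 6184 and 5321 in Nrf2 KO, 14503 and 17625 in p65 KO, and 8195, 19725 and 19475 in DKO. All 7 knockout libraries were above control. It rose 4.88-fold in p65 KO (adjusted p = 0.00558) and 4.80-fold in DKO (adjusted p = 0.00791). Dgat2, which makes triglycerides, rose 1.80-fold in p65 KO (adjusted p = 0.0138). Agpat2 (fell by 0.99 on the log2 scale), Lpcat3 (fell by 0.55) and the acyl-CoA synthetase Acsl1 (fell by 0.63) were among the 4 lower there. Acsl1 also fell by 0.71 in DKO. In Nrf2 KO it had 33257 and 28432 normalized counts, below the 42948 to 48762 of control, but did not pass by edgeR.

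**Figure D5:**
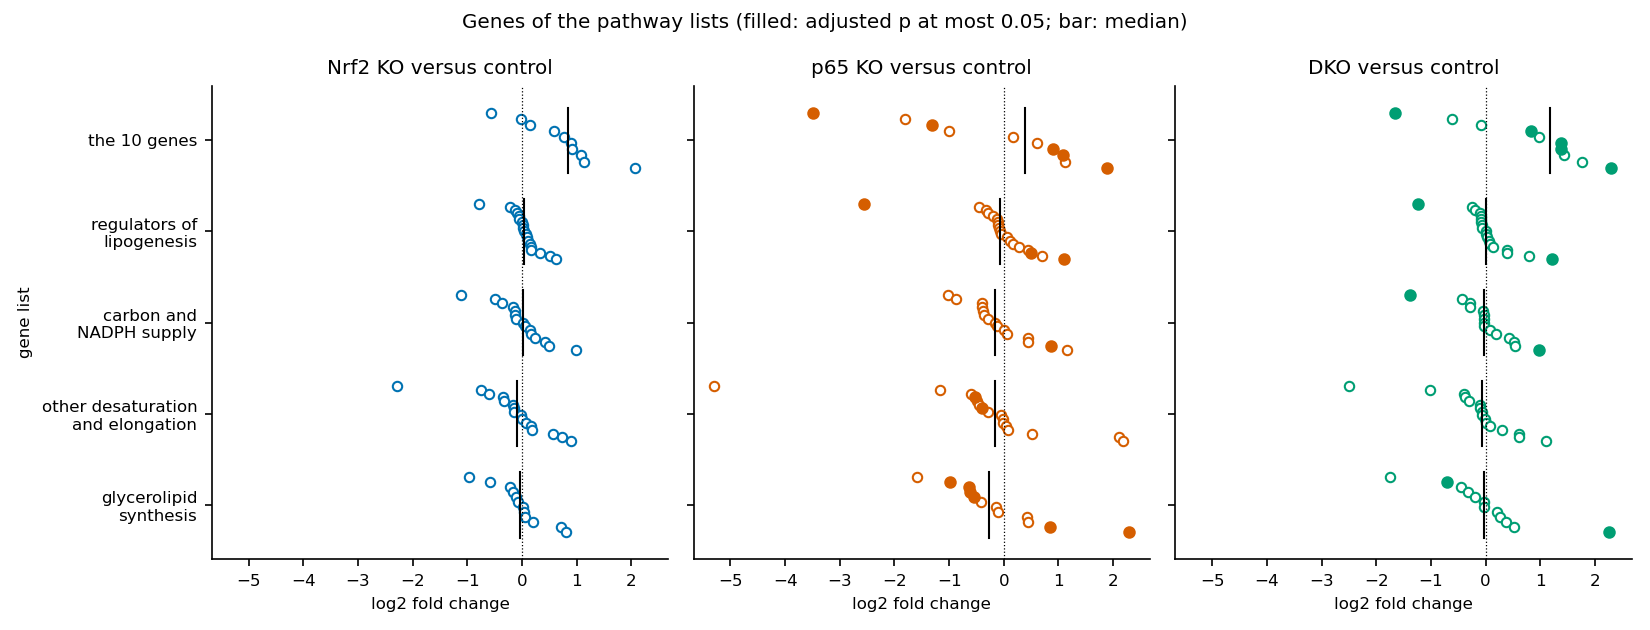
Log2 fold changes against control (x axis) of the genes of 5 lists (y axis) in Nrf2 KO, p65 KO and DKO. Each point is a gene, filled where its adjusted p is at most 0.05, and bars are list medians. From left to right the median of the 10 genes is 0.84, 0.39 and 1.17, those of the other 4 lists lie between -0.274 and 0.0376, and the point far to the left in p65 KO is Scd3, which was at 0 counts there, so that its fitted value is no measured fold.

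The second question was whether loss of both factors differed from loss of either. Between DKO and p65 KO, 0 of the 10 genes passed by edgeR (4.11% of all genes), 3 had an unadjusted p under 0.05, and DESeq2 passed 3 (Acly, Elovl3 and Pnpla3). Over all 13641 genes tested, 3066 had such an unadjusted p and DESeq2 passed 1291. The DKO libraries were above both p65 KO libraries without overlap for Acly, Elovl3, Elovl5 and Pnpla3, that is 4 of 10 (18.5% of all genes), and 0 were below them (20.1%), although for Pnpla3 the margin of DKO replicate 2 was 11.22 against 11.18. Elovl3 was 3.52-fold higher in DKO than in p65 KO (1.71 to 7.275, adjusted p = 0.0575), just short of the threshold. Without DKO replicate 2, 4 genes passed in this comparison (Acly, Fasn, Elovl3 and Pnpla3), and without either Nrf2 KO library Elovl3 passed. Between DKO and Nrf2 KO, 0 of 10 passed by edgeR (0.513% of all genes) and by DESeq2 (504 of 13641 genes). An unadjusted p under 0.05 was found for 2 (1961 of 13641), and 0 of 10 were without overlap (32.2% of all genes). The largest estimate there was that of Thrsp, 2.601-fold higher in DKO (1.28 to 5.28, adjusted p = 0.218), with Nrf2 KO replicate 2 (15993) just above DKO replicate 2 (15298). Elovl3 was at 0.469 of Nrf2 KO (0.241 to 0.912, adjusted p = 0.284), where Nrf2 KO replicate 2 lay inside the DKO range. For Srebf1, DKO stood at 1.24-fold of p65 KO (0.827 to 1.85) and 1.23-fold of Nrf2 KO (0.823 to 1.84), so the interval leaves room for a difference of either sign.

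The interaction is the difference between the 2 effects of Nrf2 loss with and without p65. In it, 0 of 10 genes passed by edgeR (0.469% of all genes) and by DESeq2 (400 of 13641 genes). An unadjusted p under 0.05 was found for 2 (1888 of 13641). Acaca had an interaction of -0.99 on the log2 scale (SE 0.311, adjusted p = 0.214), with estimates of 1.87-fold, 1.875-fold and 1.77-fold in Nrf2 KO, p65 KO and DKO. Elovl3 had 2.39 (SE 0.650, adjusted p = 0.158), with a lower level in p65 KO than in DKO. Among the genes of the 4 lists, Insig2 passed.

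For the 6 genes that passed in at least 1 comparison, the genes with the most similar profile over the 10 libraries were sought among 10175 genes whose mean normalized count reached 50. Likeness was the root mean square difference of the centred log2 profiles. The nearest genes were Pklr for Srebf1 (0.187), Fnip2 for Acaca (0.134) and Zfp870 for Fasn (0.288), and Pklr was also among the 3 nearest of Acaca (0.192) and Fasn (0.339). Next after Pklr for Srebf1 came Fnip2 (0.282) and Setd4 (0.289), and after them for Acaca Tmem131l (0.217) and for Fasn Prss8 (0.339). Elovl3 lay nearest to Asap2 (0.303), Chka (0.448) and Spon2 (0.449), Elovl5 to Klk1b4 (0.219), Ahctf1 (0.279) and Rps23rg1 (0.293), and Thrsp to Mup18 (0.536), Extl1 (0.541) and Brca1 (0.553). Among the 10 genes themselves, Srebf1 and Acaca (0.296), Fasn and Acly (0.291) and Scd1 and Elovl5 (0.292) were nearest to each other. Pnpla3 (1.217 from Scd1) and Elovl3 (0.984 from Elovl5) lay farthest from their nearest member. The genes share libraries and depth, and these values describe the 10 libraries.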

How the data were processed

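RNA of freshly isolated hepatocytes (Percoll-purified, poly-A enriched, stranded TruSeq, single-end reads) was sequenced from 10 mice. The authors quantified reads with Salmon 1.10.3 on GRCm39 with the GENCODE annotation, and deposited the result as whole-number estimated counts, in a table named as normalized. Library totals and scaling factors still differ in it, so the values were taken as unnormalized, which the sources do not settle. The methods give a sense-strand library type for a stranded kit, and its effect on the counts was not tested. The counts were tested in edgeR 4.0.16 (R 4.3.3, limma 3.58.1) by the quasi-likelihood test with TMM scaling, in 1 fit of all libraries without covariates, for genes with at least 10 summed counts. P-values were adjusted by Benjamini-Hochberg over 13641 genes, and thresholds were an adjusted p of 0.05 and, where stated, an absolute log2 fold change of 1. Intervals are 95% intervals of that fit. Gene positions come from GENCODE M39 (21926 of 21939 identifiers matched), promoters from RefSeq on GRCm38.p6. The code was tested on data with known answers. Replicates of 1 genotype differed by more than sampling noise (chi-square per degree of freedom 44.8 to 204), and p-values measure the spread between these mice.

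The 10 genes and all lists were chosen with earlier results of these data known. All 10 genes are named. Of each list, up to 4 passing genes with the lowest p are named in each comparison with control and in the interaction. The 3 most similar profiles of each gene that passed are named as well (mean of at least 50 normalized counts). Alternatives were DESeq2 1.42.0, limma on log2(normalized count + 1), other scalings, no filter or a mean of 10 counts, the replicate number as a block, fits of the compared genotypes alone and leaving out each library. Outliers were not tested in groups of 2 or 3. Sums and figures were made in Python 3.11.15 with pandas 2.3.3 and matplotlib 3.10.9.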

Additional observations from a re-analysis of the deposited data

How the results depend on the processing

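Groups of 2 or 3 mice limit every test. Of the 10 genes, 0 passed in Nrf2 KO, 5 in p65 KO, 5 in DKO and 0 between DKO and p65 KO, and when 1 library was left out these counts ranged from 0 to 1, from 1 to 6, from 0 to 7 and from 0 to 4. With DESeq2, 3 passed in Nrf2 KO and 3 between DKO and p65 KO. Without the filter on low counts these were 1 and 2. With only the genotypes compared in the fit, 1 passed in Nrf2 KO and 3 in DKO. The replicate number as a block left 3 passing in DKO and gave 1 between DKO and p65 KO, but same-numbered libraries did not deviate together (13 pairs, r between -0.232 and 0.113), so the numbers do not pair the mice. With the block, Acaca (adjusted p = 0.0668) and Fasn (adjusted p = 0.0868) no longer passed in DKO. Between DKO and Nrf2 KO and for the interaction 0 passed under every alternative by edgeR, DESeq2 or limma. The causes of these shifts were not tested.

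Over all genes, the passing counts of 99, 2032, 743, 561, 70 and 64 (Nrf2 KO, p65 KO, DKO, DKO against p65 KO, DKO against Nrf2 KO, interaction) became 320 in Nrf2 KO, 1446 in DKO, 1291 between DKO and p65 KO, 504 between DKO and Nrf2 KO and 400 for the interaction with DESeq2. Without 1 library they fell as low as 18, 452, 229, 85, 18 and 8 in the same order. The interaction count also rose, to 127 without DKO replicate 2. With the block they were 60, 1178, 454, 294 and 39 in the first 5 comparisons. Equal totals gave 1753 between DKO and p65 KO and 140 for the interaction, no filter 149 between DKO and Nrf2 KO and 143 for the interaction, and fits of the compared genotypes alone 417 in DKO, 116 between DKO and p65 KO and 20 between DKO and Nrf2 KO. Equal totals also moved the median log2 fold change of all genes to 0.177 in p65 KO, -0.268 between DKO and p65 KO and -0.258 in the interaction.

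Sign changes of log2 values occurred only for estimates that had not passed. With the block, Elovl5 in Nrf2 KO became 0.22, Elovl6 between DKO and p65 KO -0.0188, and the interactions of Acly and Scd1 -0.0163 and -0.10. Elovl5 in Nrf2 KO was 0.0248 with limma, and the interaction of Acly -0.0668 with equal totals. Over the fits with 1 library left out, Scd1 ranged from -0.11 to 0.34 and Elovl5 from -0.25 to 0.15 in Nrf2 KO. In DKO, Scd1 ranged from -0.84 to 0.27. Between DKO and p65 KO, Srebf1 ranged from -0.0169 to 0.48, Acaca from -0.28 to 0.13 and Elovl6 from -0.39 to 0.96. Between DKO and Nrf2 KO, Srebf1 ranged from -0.0234 to 0.51, Acaca from -0.23 to 0.0574, Scd1 from -0.99 to 0.12, Elovl6 from -0.0536 to 0.99 and Pnpla3 from -1.22 to 0.23. In the interaction, Acly ranged from -0.13 to 0.43, Elovl6 from -1.16 to 0.19 and Thrsp from -0.89 to 0.0203.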
